A study of Danio rerio with 3 samples.

Results

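RNA from zebrafish embryos injected with 3 ng of a morpholino against hnrnpaba was compared with RNA from embryos injected with the same dose of a standard control morpholino. Morpholinos are synthetic antisense oligomers used to block the translation or splicing of a chosen RNA. The comparison uses 2 of the 3 libraries in the series, the other being 6 ng of the hnrnpaba morpholino. All embryos were of the Tuebingen strain, were injected at the 1-cell stage and were collected 24 hours post fertilization, and each library came from 30 pooled embryos. No uninjected embryos, mutant embryos or rescue with hnrnpaba RNA entered the comparison. The model is transient knockdown in whole embryos, and the embryos of every library were injected with a morpholino. Members were chosen by level: of the 25961 genes in the table, the 16429 with a mean of 1 FPKM or more over the 3 libraries were compared. FPKM values are corrected for gene length and library depth, and where 2 levels of a gene stand side by side the control is first. Differences are log2((FPKM + 1) / (FPKM + 1)), 3 ng minus control, and genes counted as higher or lower were at least 2-fold from the control on that scale. With 1 library a side there was no test and no replicate check, so each value describes these libraries and not the treatment.

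hnrnpaba encodes a zebrafish counterpart of HNRNPAB, a heterogeneous nuclear ribonucleoprotein (hnRNP). Proteins of this family coat nascent transcripts and act in splicing, export, stability and translation of RNA, and HNRNPAB binds AU-rich and other single-stranded elements. At 24 hours post fertilization a zebrafish embryo has formed its somites, still extends its tail, holds primitive red cells made in posterior mesoderm, and carries dividing neural progenitors along the brain and spinal cord. Injection of a morpholino can, as background, induce stress and cell death genes independently of its target, and a matched control morpholino is the usual comparison.

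Depth was 14589056 fragments in the control library and 17748075 at 3 ng, recovered from the steps between FPKM values. Markers of muscle, blood, neural tube, lens, skin and yolk were detected in both libraries, and each of the 74 gene lists used here had at least 7 members past the filter. The total of the FPKM values was 454561 in the control and 480820 at 3 ng, a ratio of 1.058, and the median difference over all genes tested was 0.02. Intervals beside folds are 95% exact (Clopper-Pearson) intervals on FPKM ratios without a pseudocount, and they cover counting error only. In pooled whole embryos, fewer cells of a type and less RNA per cell cannot be told apart.

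The targeted transcript itself was not lower at this dose. hnrnpaba (chromosome 14, 6962271 to 6968589, on the plus strand, ENSDARG00000007960) was measured at 442 FPKM in control embryos and 459 FPKM in 3 ng morphants, and its paralog hnrnpabb stood at 242 against 244 FPKM. The fold of hnrnpaba was 1.04 (1.02 to 1.06), and its difference on the log2 scale was 0.05, or -0.03 after rescaling to equal sums of FPKM. A morpholino that blocks translation leaves the transcript in place, so for that kind the RNA level does not check the knockdown. The labels do not give the kind of morpholino, so what this level says of the knockdown cannot be told here.

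Of the 16429 genes tested, 604 (3.68%) were higher by at least 2-fold in 3 ng morphants, and 361 (2.2%) were lower by as much. The higher genes made up 62.6% of those counted, and 53.2% after the libraries were rescaled to equal sums of FPKM. For 579 of the higher and 342 of the lower genes the fold's counting interval excluded 1. Large differences were mostly upward: 203 genes were at least 3-fold higher and 72 lower, and 95 were at least 4-fold higher and 24 lower. At 8-fold the counts were 7 and 4, and none reached 16-fold on the scale with its pseudocount. In all 273 genes lay within 0.1 of the upper limit and 265 within 0.1 of the lower limit. hnrnpd, at 1.0022 on the log2 scale, was just inside the upper limit and myod1, at 0.9991, just outside it, while pklr at -1.0011 was just inside the lower limit and bnip3la at -0.9970 just outside it.

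**Figure D1:**
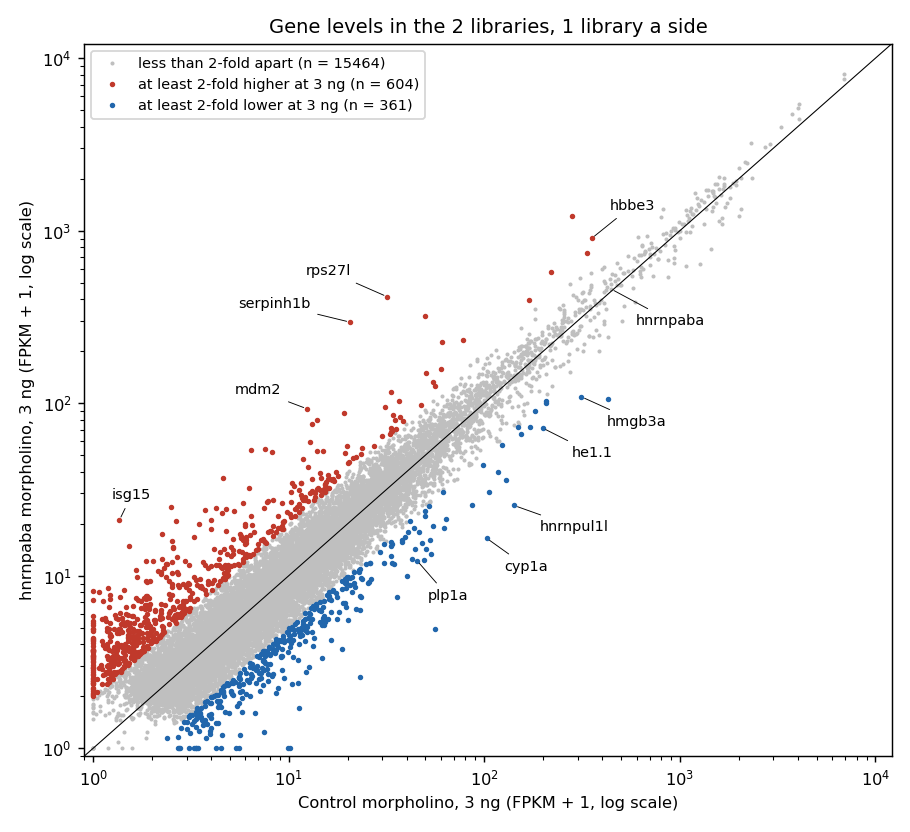
Level of each of the 16429 genes tested in the control library (x axis) and at 3 ng (y axis), both as FPKM + 1 on log scales; red points are at least 2-fold higher at 3 ng, blue points at least 2-fold lower, and the line marks equal levels. Most genes lie near the line, rps27l and serpinh1b stand well above it, and hnrnpaba lies on it.

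Among the most abundant genes, those with a mean of 100 FPKM or more, 14 were higher (2.37%) and 7 lower (1.19%) of 590. Both shares were below those over all genes, 3.68% and 2.2%. The list was read after the values were seen. The highest of them in level was ccng1, cyclin G1, a damage-inducible cyclin, at 281 FPKM in control embryos and 1219 FPKM in 3 ng morphants, a fold of 4.34 (4.25 to 4.44). dynll1, a light chain of cytoplasmic dynein, stood at 168 FPKM in control embryos and 394 FPKM in 3 ng morphants. ewsr1b, an RNA-binding protein of the FET family, stood at 206 FPKM in control embryos and 102 FPKM in 3 ng morphants. Most of the remaining abundant genes that differed are described with their groups below. Some are not, among them rows without a gene symbol.

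Genes of growth arrest and the damage response were among the higher ones. Such genes halt the cell cycle, repair DNA or start apoptosis after stress. Of the 31 list members that passed the filter (34 in the table), 11 (35.5%) were at least 2-fold higher and 0 lower. The shares over all genes were 3.68% and 2.2%. The median difference of the list was 0.58, beside 0.02 for all genes. mdm2, a ubiquitin ligase, was at 11.4 FPKM in control embryos and 91.7 FPKM in 3 ng morphants, and cdkn1a, the p21 inhibitor of cyclin-dependent kinases, was at 5.29 against 31.1 FPKM. Their folds were 8.04 (7.17 to 9.04) and 5.89 (4.74 to 7.38), so the control values of both genes lay well outside the counting error at 3 ng. phlda3, an inhibitor of Akt signalling, stood at 5.39 FPKM in control embryos and 52.5 FPKM in 3 ng morphants, and rps27l, a ribosomal protein paralog, at 30.9 against 413 FPKM, a fold of 13.4 (12.01 to 14.9). gadd45aa, a growth arrest gene, was at 3.56 FPKM in control embryos and 21.99 FPKM in 3 ng morphants. The members on the low side of the control stayed close to it and were mostly repair genes: ddb2 and xpc, damage sensors of nucleotide excision repair, had differences of -0.40 and -0.35.

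Apoptosis genes lay on both sides of the control. Among 29 measured members of the list, of 32 in the table, 3 were higher (10.3%) and 1 lower (3.45%). Over all genes the shares were 3.68% and 2.2%. The median of the list was 0.27, with 18 of 29 above the control. The initiator caspase casp8 stood at 1.25 FPKM in control embryos and 16.4 FPKM in 3 ng morphants, and the BH3-only gene bbc3 (Puma) at 0.648 against 6.38 FPKM. baxa, the pore-forming effector, was at 32.4 FPKM in control embryos and 67.2 FPKM in 3 ng morphants, close to the 2-fold limit. pmaip1 (Noxa) was above the control by 0.60 on the log2 scale and did not reach the limit. By contrast bmf1, another BH3-only gene, was lower, at 5.86 FPKM in control embryos and 1.99 FPKM in 3 ng morphants, and the survival gene bcl2a had a difference of -0.73. The executioner casp3a was at 34.4 FPKM in control embryos and 28.1 FPKM in 3 ng morphants.

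Some cell cycle inhibitors were among the higher genes, while most genes of replication and division lay below the control. The list of cyclins and cyclin-dependent kinase inhibitors had 25 members in the table and 23 past the filter. Of these 3 were higher and 0 lower, while 13 lay below the control and the median was -0.15. The higher members were cdkn1a, rbl2 and cdkn2a/b. rbl2, a pocket protein that holds E2F targets off, stood at 1.56 FPKM in control embryos and 13.6 FPKM in 3 ng morphants, a fold of 8.68 (7.51 to 10.1). cdkn2a/b, the locus of Ink4 inhibitors, went from a trace to a clear signal, at 0.173 FPKM in control embryos and 3.98 FPKM in 3 ng morphants. In the DNA replication list 4 of 50 measured members (8%) were lower, 0 were higher and 44 of 50 lay below the control, with a median of -0.52. rfc3, a clamp loader subunit, stood at 6.18 FPKM in control embryos and 1.56 FPKM in 3 ng morphants, cdc6, a licensing factor, at 18.3 against 8.04 FPKM, and the ribonucleotide reductase subunit rrm1 at 147 against 71.9 FPKM. In the mitosis list no member reached the limit, and 42 of 49 lay below the control with a median of -0.36. The condensin genes smc2 (53 and 29.7 FPKM) and ncapd2 (36.3 and 20.1 FPKM) were among the farthest below. DNA repair genes also held no called member, with 32 of 43 below the control and a median of -0.25; lig1, the replicative ligase, stood at 51.8 FPKM in control embryos and 26 FPKM in 3 ng morphants. h2ax, whose phosphorylated protein marks breaks, was on the other side at 42.4 FPKM in control embryos and 71.1 FPKM in 3 ng morphants.

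Chromatin genes lay mostly below the control, with 3 past the limit. In its list 0 of 59 measured members (60 in the table) were higher and 3 lower (5.08%, beside 2.2% over all genes). These were hmgb3a (312 and 108 FPKM), hmgb1a (171 and 71.5 FPKM) and hmgb1b (205 and 99.03 FPKM), which bend DNA without sequence preference. hmgn2, a nucleosome-binding relative and one of the most abundant genes in the list, stood at 1434 FPKM in control embryos and 777 FPKM in 3 ng morphants, just short of the limit. The maintenance methyltransferase dnmt1 (51.02 and 25.7 FPKM) and the hydroxylase tet1 (2.696 and 1.02 FPKM) lay below the control by nearly as much.

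**Figure D2:**
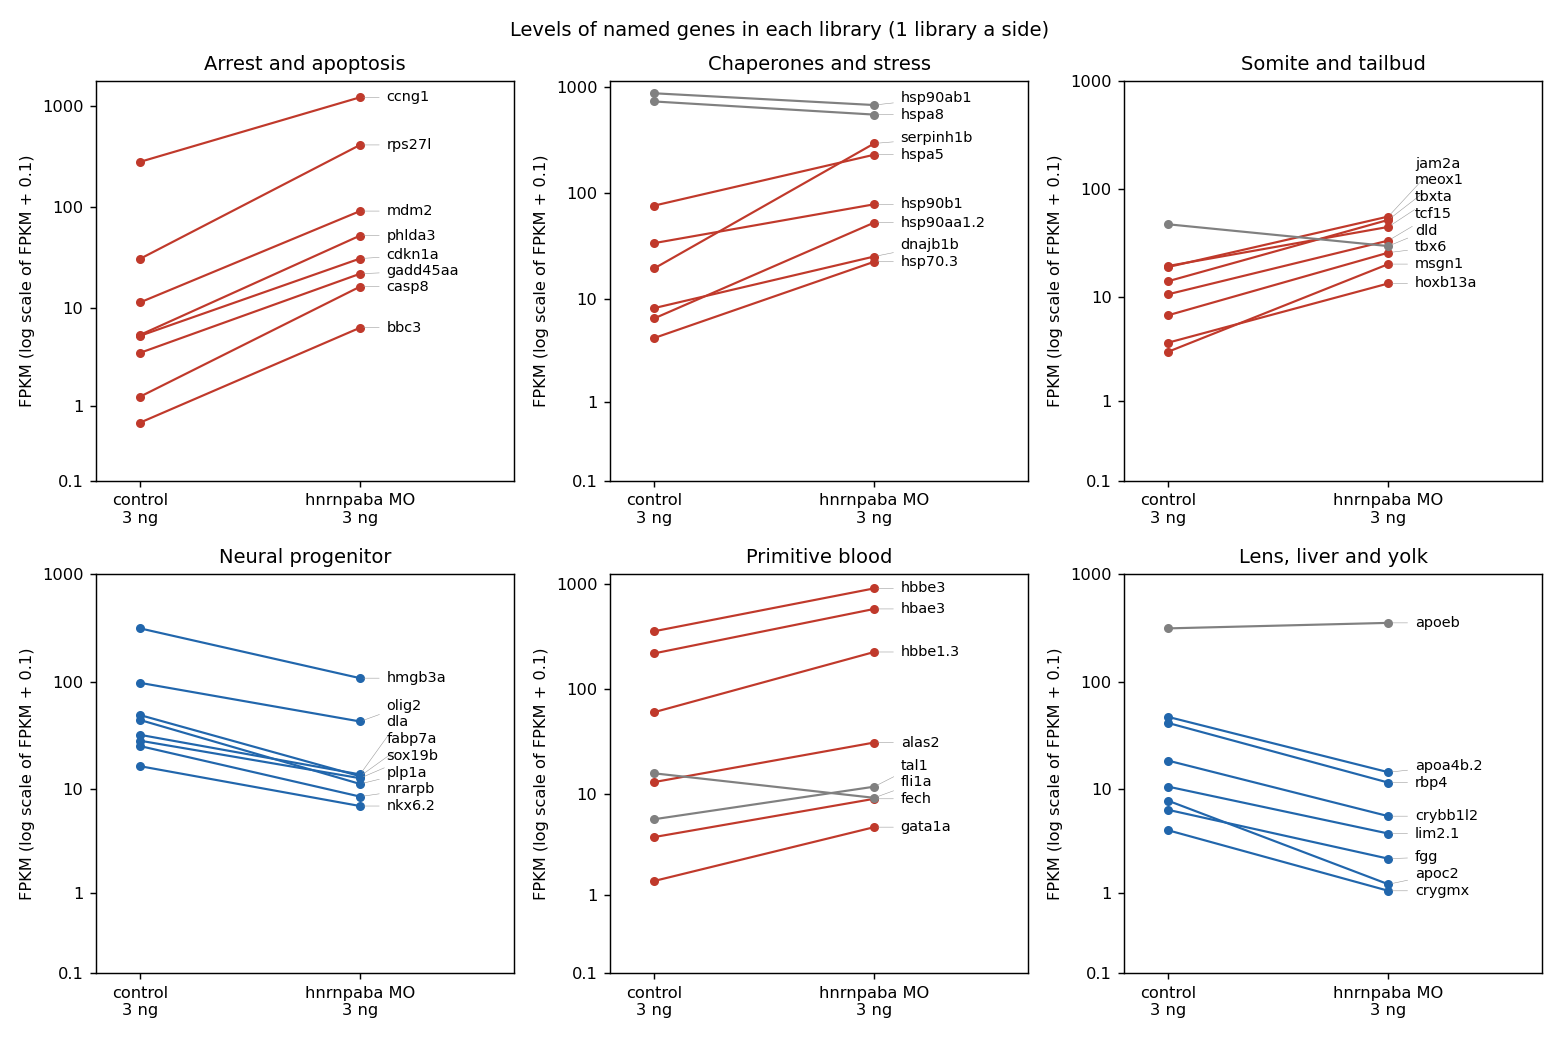
Level of named genes in the control library and at 3 ng (FPKM, log scale of FPKM + 0.1, 1 library a side); red lines are genes at least 2-fold higher at 3 ng, blue lines at least 2-fold lower and grey lines neither. All 8 arrest and apoptosis genes shown slope up and all 8 neural genes shown slope down. The constitutive chaperones hspa8 and hsp90ab1 slope slightly down and lie above the inducible ones.

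Genes of the heat shock chaperone list, most of them cytosolic, were among the higher ones. With 33 of 38 members past the filter, 10 were higher (30.3%, beside 3.68% over all genes) and 0 lower. The median was 0.72. The 10 include serpinh1a and serpinh1b, which encode chaperones of the endoplasmic reticulum and not of the cytosol. serpinh1b (ENSDARG00000019949, chromosome 15, 29382454 to 29388012, minus strand), the collagen-specific chaperone Hsp47, stood at 19.6 FPKM in control embryos and 294 FPKM in 3 ng morphants, a fold of 15 (14.2 to 15.9), and its paralog serpinh1a at 30.1 against 94.5 FPKM. hsp90aa1.2, an inducible cytosolic Hsp90, was at 6.58 FPKM in control embryos and 53.01 FPKM in 3 ng morphants, and hsp70.3 at 4.27 against 22.7 FPKM. These sit far below the constitutive hspa8 (729 and 549 FPKM) and hsp90ab1 (870.0 and 675 FPKM), both of which lay below the control. The co-chaperones dnajb1a (4.82 and 15.103 FPKM) and dnajb1b (8.25 and 25.4 FPKM) were higher as well. hsp70.1, HSPA2 and hsp70.3 neighbour each other on chromosome 3 (26112780 to 26127091), and reads of such tandem copies cannot be divided with certainty.

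The endoplasmic reticulum response was broad but of modest size. Of the 33 list members that passed the filter (34 in the table), 3 were higher (9.09%, beside 3.68% over all genes) and 0 lower. In all 31 of 33 lay above the control, with a median of 0.48. hspa5 (BiP), the main chaperone of the reticulum, stood at 76.5 FPKM in control embryos and 230.4 FPKM in 3 ng morphants, hsp90b1 (Grp94) at 33.9 against 78.8 FPKM and manf, a secreted stress factor, at 14.9 against 31.2 FPKM. ddit3 (Chop), a pro-apoptotic transcription factor of this pathway, was above the control by 0.73 and did not reach the limit. In the list of amino acid response genes 1 of 31 members (3.23%) was higher, beside 3.68% over all genes. This was atf5a, at 3.26 FPKM in control embryos and 10.5 FPKM in 3 ng morphants. phgdh, the first enzyme of serine synthesis, lay below the control at 54.3 against 32.5 FPKM. The oxidative stress list of NRF2 targets had 0 of 29 members called in either direction, and its median was 0.18.

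The list of AP-1, immediate early and injury genes held 4 called members. Among 27 measured members, of 37 in the table, 4 were higher (14.8%, beside 3.68% over all genes) and 0 lower. Of these fosab, fosl1a and cxcl18b were below 1 FPKM in the control and passed the filter through the morphant libraries. That count was therefore partly set by the filter. fosab, a c-Fos subunit of AP-1, stood at 0.363 FPKM in control embryos and 6.50 FPKM in 3 ng morphants, and fosl1a at 0.616 against 3.24 FPKM. mycb, a Myc factor, was just past the limit at 32.7 FPKM in control embryos and 68.03 FPKM in 3 ng morphants. cxcl18b, a chemokine that draws neutrophils, was at 0.872 FPKM in control embryos and 6.60 FPKM in 3 ng morphants, whereas egr1, an immediate early gene, was at 2.63 against 2.39 FPKM. In the interferon list 14 of 31 members passed the filter and 3 were higher (21.4%, beside 3.68% over all genes): isg15, b2m and irf1a. Because isg15 was below 1 FPKM in the control and passed through the morphant libraries, this count was also partly set by the filter. isg15, a ubiquitin-like modifier, had the largest difference of any gene with a standard symbol, at 0.36 FPKM in control embryos and 19.95 FPKM in 3 ng morphants, with 6 fragments behind the control value and a fold of 55.3 (25.2 to 152). mxc stood at 0.141 FPKM in control embryos and 1.11 FPKM in 3 ng morphants and irf7 at 1.41 against 1.498 FPKM. No macrophage or neutrophil gene was called among the 11 of 27 that passed; lcp1, a pan-leukocyte actin bundler, was at 3.36 FPKM in control embryos and 3.18 FPKM in 3 ng morphants.

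Other genes among the 20 farthest above the control, counting only genes with a standard symbol and not clone names or bare identifiers, had varied roles. nupr1a, a stress-inducible nuclear protein, stood at 12.2 FPKM in control embryos and 74.6 FPKM in 3 ng morphants, and lnx1, a ubiquitin ligase that targets Numb, at 2.73 against 23 FPKM. rspo1, a secreted amplifier of Wnt signalling, was at 0.0764 FPKM in control embryos and 7.004 FPKM in 3 ng morphants, where the control value rests on 2 fragments. irg1l, immunoresponsive gene 1 like, was at 3.25 FPKM in control embryos and 23.7 FPKM in 3 ng morphants, and 3 neighbouring genes on chromosome 14 (11427052 to 11461002) were higher with it. bmb, brambleberry, which fuses nuclear envelopes around chromosomes in zebrafish cleavage divisions, was at 2.46 FPKM in control embryos and 18.97 FPKM in 3 ng morphants. rn7sk, the 7SK RNA that holds the elongation factor P-TEFb inactive, was at 3.62 FPKM in control embryos and 35.7 FPKM in 3 ng morphants, with 17 fragments in the control. It is a small nuclear RNA, so the limit on RNA selection given below applies to it.

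Genes of the posterior mesoderm were among the higher ones. The presomitic mesoderm is the unsegmented tissue at the tail end from which somites form, under Tbx6, Mesp and an oscillator of her genes. The list had 41 members in the table and 39 past the filter, of which 12 (30.8%) were higher and 0 lower. Counts of called members in this paragraph stand beside 3.68% higher and 2.2% lower over all genes. Its median was 0.32, with 14 of 39 below the control. The median was 0.43 without the filter and 0.13 over members with a mean of 5 FPKM or more. msgn1 stood at 3.03 FPKM in control embryos and 20.1 FPKM in 3 ng morphants, tbx6 at 6.70 against 25.7 FPKM and mespab at 0.223 against 3.48 FPKM, all 3 being transcription factors of this tissue. The oscillator genes her1 (2.27 and 8.80 FPKM) and her7 (0.505 and 3.41 FPKM) were higher. Both mespab and her7 were below 1 FPKM in the control and passed the filter through the morphant libraries. The count of 12 was therefore partly set by the filter. Other members of the list lay below the control: dld stood at 47.1 FPKM in control embryos and 29.6 FPKM in 3 ng morphants, her2 at 54.2 against 33.7 FPKM and lfng at 79.4 against 60.1 FPKM. Newly formed somites were marked by meox1 (13.95 and 51.8 FPKM) and tcf15 (10.5 and 33.3 FPKM), both higher. In the tailbud list 6 of 21 members (27 in the table) were higher and 0 lower, with a median of 0.74. That median was 0.43 without the filter and 0.84 over members with a mean of 5 FPKM or more. tbxta (Brachyury) stood at 19.3 FPKM in control embryos and 44.6 FPKM in 3 ng morphants, eve1 at 2.08 against 7.26 FPKM, and cdx4, at 10.7 against 22.1 FPKM, lay just under the limit.

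Among hox genes the called members were all in the posterior groups. Hox paralog groups are numbered by their place in the cluster, low numbers acting at the head end and high numbers at the tail. Groups 1 to 4 had 0 of 13 members called and a median of -0.19, and groups 5 to 8 had 0 of 9 and 0.15. Groups 9 to 13 had 7 of 20 higher (35%, beside 3.68% over all genes) and a median of 0.79. The median of groups 5 to 8 was -0.01 after the median of genes of like length was taken off, so its side rests on the setting. hoxd12a stood at 5.47 FPKM in control embryos and 18.7 FPKM in 3 ng morphants, hoxb13a at 3.69 against 13.3 FPKM, hoxc10a at 4.08 against 12.1 FPKM and hoxc12a at 19.2 against 44.3 FPKM. In group 13 all 5 genes lay above the control, with differences from 0.90 to 1.61, and their summed level was 23.2 FPKM in the control library and 59.8 FPKM at 3 ng. In group 4 all 4 genes lay below it, from -0.37 to -0.02. hoxd9a (-0.02) and hoxc11b (0.19) were the posterior members nearest to the control, and hoxc3a (0.49) the anterior member farthest above it.

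**Figure D3:**
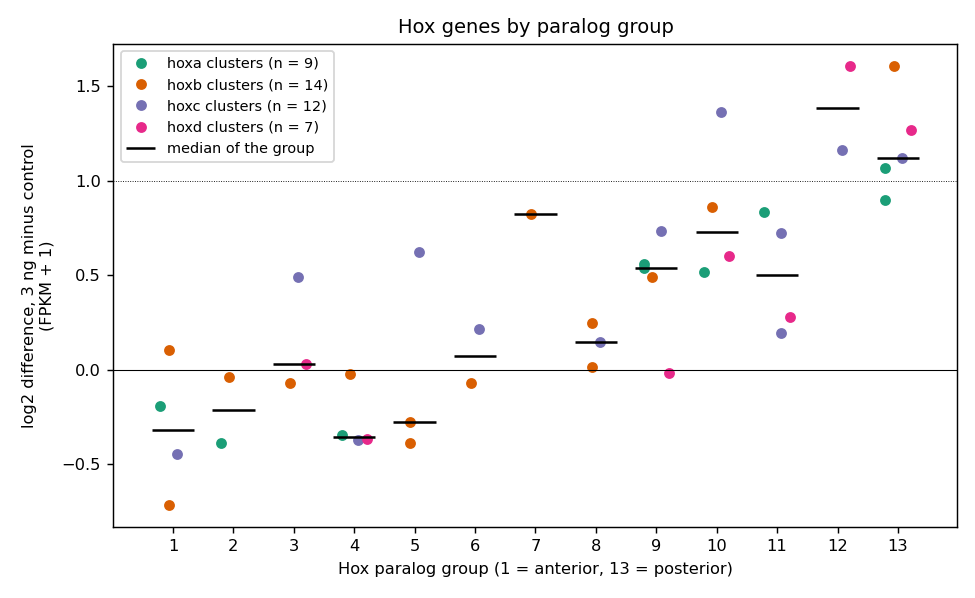
log2 difference, 3 ng minus control, of each of the 42 hox genes that passed the filter (y axis) by paralog group (x axis), coloured by the letter of the cluster; bars are medians of the group, and the dotted line marks 2-fold. Medians lie at or below 0.07 in groups 1 to 6 and reach 1.39 in group 12 and 1.123 in group 13.

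Muscle regulators lay mostly above the control and myosin chains mostly below it. In the regulator list 2 of 27 measured members (28 in the table) were higher (7.41%, beside 3.68% over all genes) and 0 lower. In all 20 of 27 lay above the control. The called members were meox1 and jam2a, a surface protein needed for myoblast fusion, the latter at 18.9 FPKM in control embryos and 55.6 FPKM in 3 ng morphants. myod1 stood at 25.1 FPKM in control embryos and 51.1 FPKM in 3 ng morphants, myog at 4.68 against 9.55 FPKM and mymk, the fusogen Myomaker, at 27.3 against 40.5 FPKM. No skeletal myosin heavy chain was called, and 10 of 13 lay below the control. The fast chains myhz1.1 (385 and 199 FPKM) and myhz1.3 (507 and 298 FPKM) and the slow chain smyhc1 (318 and 199 FPKM) had the highest levels of that list, and their sum with the others was 1587 FPKM in control embryos and 980.0 FPKM in 3 ng morphants. In the thin filament list acta1a, a skeletal actin, was the called member of 41 (2.44% higher, beside 3.68% over all genes). It was at 335 FPKM in control embryos and 739 FPKM in 3 ng morphants, while neb was at 51.9 against 37.6 FPKM and tnnc2 at 1069 against 1317 FPKM. Long gene models lay lower than short ones in this comparison, as given below, and the median of the myosin list was -0.27, or -0.16 after the median of genes of like length was taken off. The same median was -0.70 over members with a mean of 5 FPKM or more and -0.43 with a pseudocount of 0.1 FPKM. Cardiac genes had 0 of 21 members called, with myl7 at 11.02 FPKM in control embryos and 5.44 FPKM in 3 ng morphants.

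Notochord and floor plate genes were mostly above the control. With 33 of 35 members past the filter, 5 were higher (15.2%, beside 3.68% over all genes) and 0 lower. ntd5 stood at 53.9 FPKM in control embryos and 131 FPKM in 3 ng morphants, ctgfa, a matricellular factor, at 36.1 against 82.1 FPKM, and noto, a homeobox gene of the notochord, at 1.59 against 4.78 FPKM. The ligands shhb (2.72 and 7.26 FPKM) and shha (8.71 and 15.9 FPKM) were above the control, with shhb past the limit. In the Hedgehog list 1 of 28 was higher and 1 lower, shares near those over all genes, and 8 lay above the control. The receptor ptch1 (19.5 and 10.25 FPKM) and the effector gli3 (4.33 and 1.94 FPKM) lay below it. olig2, which marks motor neuron and oligodendrocyte progenitors of the ventral cord and depends on Hedgehog, was lower at 97.7 FPKM in control embryos and 42.8 FPKM in 3 ng morphants.

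Primitive red cell genes were among the higher ones. Of the 11 list members that passed the filter (14 in the table), 7 (63.6%) were at least 2-fold higher and 0 lower. Counts in this paragraph stand beside 3.68% higher and 2.2% lower over all genes. All 11 lay above the control and the median was 1.32, the highest of the 74 lists here, while egg and germ cell genes were higher with a pseudocount of 0.1 FPKM (2.31 against 1.39), after the correction for length (1.29 against 1.16) and with the filter on these 2 libraries alone (1.37 against 1.32). hbbe3 stood at 353 FPKM in control embryos and 901 FPKM in 3 ng morphants, hbae3 at 217 against 575 FPKM and hbbe1.3 at 60.1 against 224 FPKM. The embryonic globins are close copies, and hbae4, hbbe3, hbae5 and hbbe2 neighbour each other on chromosome 12 (20336070 to 20373058) with aqp8a.1, all 5 being higher, so reads may be shared among the copies. Of the heme genes 4 of 23 were higher: alas2, the red cell form of the first enzyme, stood at 12.97 FPKM in control embryos and 30.9 FPKM in 3 ng morphants, hmbsb at 10.7 against 27.3 FPKM, fech, which inserts the iron, at 3.83 against 8.98 FPKM and cpox at 13.7 against 28.5 FPKM. In contrast alas1, the housekeeping form, stood at 42.1 FPKM in control embryos and 38.2 FPKM in 3 ng morphants. In the red cell membrane and late erythroid list 5 of 23 members were higher and 0 lower, and 7 lay below the control, down to -0.54. Its median was 0.38, and 0.10 over members with a mean of 5 FPKM or more. gata1a, the master regulator of red cells, was at 1.41 FPKM in control embryos and 4.78 FPKM in 3 ng morphants, nfe2 at 0.251 against 1.68 FPKM and the membrane skeleton gene epb41b at 2.56 against 7.67 FPKM. The earlier factors tal1 (5.71 and 11.7 FPKM), lmo2 (8.01 and 16.2 FPKM) and gfi1b (1.59 and 3.92 FPKM) lay above the control without reaching the limit. In the list of blood progenitor transcription factors 1 of 15 members (6.67%) was higher and 0 lower. Its median was 0.47, and 4 members lay below the control, down to -0.72. Endothelial genes, which share a progenitor with blood, had 0 of 34 members called and a median of -0.05. fli1a, used in both lineages, stood at 15.7 FPKM in control embryos and 9.17 FPKM in 3 ng morphants, and kdr at 1.57 against 0.681 FPKM.

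Neural progenitor genes lay mostly below the control. SoxB factors keep neural cells dividing and undifferentiated. Among 31 measured members of the list, of 31 in the table, 0 were higher and 7 lower (22.6%, beside 2.2% over all genes). In all 29 of 31 lay below the control, with a median of -0.64. fabp7a, a radial glial fatty acid carrier, stood at 49.1 FPKM in control embryos and 13.3 FPKM in 3 ng morphants, a fold of 0.27 (0.229 to 0.317). sox19b was at 28.4 FPKM in control embryos and 12.7 FPKM in 3 ng morphants, sox21b at 19.5 against 8.74 FPKM, and the ventral and intermediate domain factors nkx6.2 and dbx1a at 16.5 against 6.98 FPKM and at 15.02 against 6.33 FPKM. gfap, the radial glial filament, was closer to the control, at 92.2 FPKM in control embryos and 69.4 FPKM in 3 ng morphants. sox1a and msi2b were the members above the control, by 0.10 and 0.07.

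The Notch pathway keeps neighbouring progenitors from differentiating together. The list had 42 members in the table and 39 past the filter, of which 1 was higher and 5 lower. Shares were 2.56% higher and 12.8% lower, beside 3.68% and 2.2% over all genes. The ligand dla stood at 32.2 FPKM in control embryos and 13.8 FPKM in 3 ng morphants, the feedback inhibitor nrarpb at 25.3 against 8.56 FPKM, her13 at 18.4 against 5.94 FPKM, and the proneural or neuroendocrine factors atoh1b and insm1a at 8.95 against 3.71 FPKM and at 18.5 against 8.42 FPKM. Other her genes lay on the opposite side: her9 was at 48.6 FPKM in control embryos and 90.2 FPKM in 3 ng morphants, her6 at 39.8 against 64.3 FPKM, and heyl, the called member above the control, at 0.381 against 1.77 FPKM. The ligand jag2a lay above the control, at 1.78 FPKM in control embryos and 4.06 FPKM in 3 ng morphants.

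Neural surface genes held some of the farthest members below the control. In its list 0 of 39 measured members (43 in the table) were higher and 6 lower (15.4%, beside 2.2% over all genes). plp1a, a myelin proteolipid, stood at 44.2 FPKM in control embryos and 11.2 FPKM in 3 ng morphants, the immunoglobulin receptor prtgb at 19.2 against 4.53 FPKM, the leucine-rich repeat protein lrrn1 at 85.1 against 24.8 FPKM and ndst3, a heparan sulfate sulfotransferase, at 12.5 against 3.35 FPKM. Both ncam1 copies were lower, ncam1a at 16.7 FPKM in control embryos and 6.53 FPKM in 3 ng morphants and ncam1b at 14.02 against 5.62 FPKM. The guidance cues sema3aa and slit2 did not reach the limit, with sema3aa at 22.4 FPKM in control embryos and 27.202 FPKM in 3 ng morphants and slit2 at 7.24 against 8.64 FPKM. Genes of differentiated neurons were mixed. With 41 of 44 members past the filter, 0 were higher and 2 lower (4.88%, beside 2.2% over all genes). These were onecut1 (7.30 and 1.698 FPKM) and stmn1a (48.8 and 21.1 FPKM); elavl3, a pan-neuronal RNA-binding protein, was at 60.03 FPKM in control embryos and 35.4 FPKM in 3 ng morphants, and gap43, an axon growth protein, at 39.7 against 50.5 FPKM. otpa, a transcription factor of hypothalamic neurons, was at 8.48 FPKM in control embryos and 1.55 FPKM in 3 ng morphants, among the 20 genes with a standard symbol farthest below.

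Patterning genes of the brain and eye showed single members rather than a set. Counts in this paragraph stand beside 3.68% higher and 2.2% lower over all genes. In the midbrain and hindbrain list 1 of 38 was lower, pou3f1, a POU factor, at 32.7 FPKM in control embryos and 10.8 FPKM in 3 ng morphants, and the boundary genes pax2a (5.87 and 7.51 FPKM) and gbx2 (6.31 and 10.7 FPKM) lay above the control. In the eye field list rx2, a retinal homeobox gene, was the called member of 29, at 6.77 FPKM in control embryos and 2.08 FPKM in 3 ng morphants, and six3b, on the other side, was at 17.1 against 29.9 FPKM. Lens genes had the lowest median of the 74 lists, -1.03, though not without the filter (-0.32) or with a pseudocount of 5 FPKM (-0.52): 12 of the 22 that passed were lower and 1 higher, while 59 are in the table. crybb1l2, a beta crystallin, stood at 18.5 FPKM in control embryos and 5.61 FPKM in 3 ng morphants, crygmx at 4.12 against 1.06 FPKM, the lens membrane gene lim2.1 at 10.6 against 3.84 FPKM and the lens aquaporin mipb at 3.24 against 0.395 FPKM. The lens transcription factors foxe3 (1.49 and 1.94 FPKM) and pitx3 (6.79 and 5.69 FPKM) were near the control. In the neural crest list 1 of 30 was called, snai1b, at 13.1 FPKM in control embryos and 31.2 FPKM in 3 ng morphants, and foxd3 and sox10 lay above the control by 0.68 and 0.49. Of 21 melanin genes 1 was higher and 1 lower. rab38b, a GTPase of melanosome traffic, was higher at 0.795 FPKM in control embryos and 3.10 FPKM in 3 ng morphants, tyrp1b lower at 33.6 against 10.8 FPKM, and dct, just under the limit, was at 27.23 against 13.4 FPKM; mitfa, their regulator, was at 6.43 against 6.67 FPKM.

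**Figure D4:**
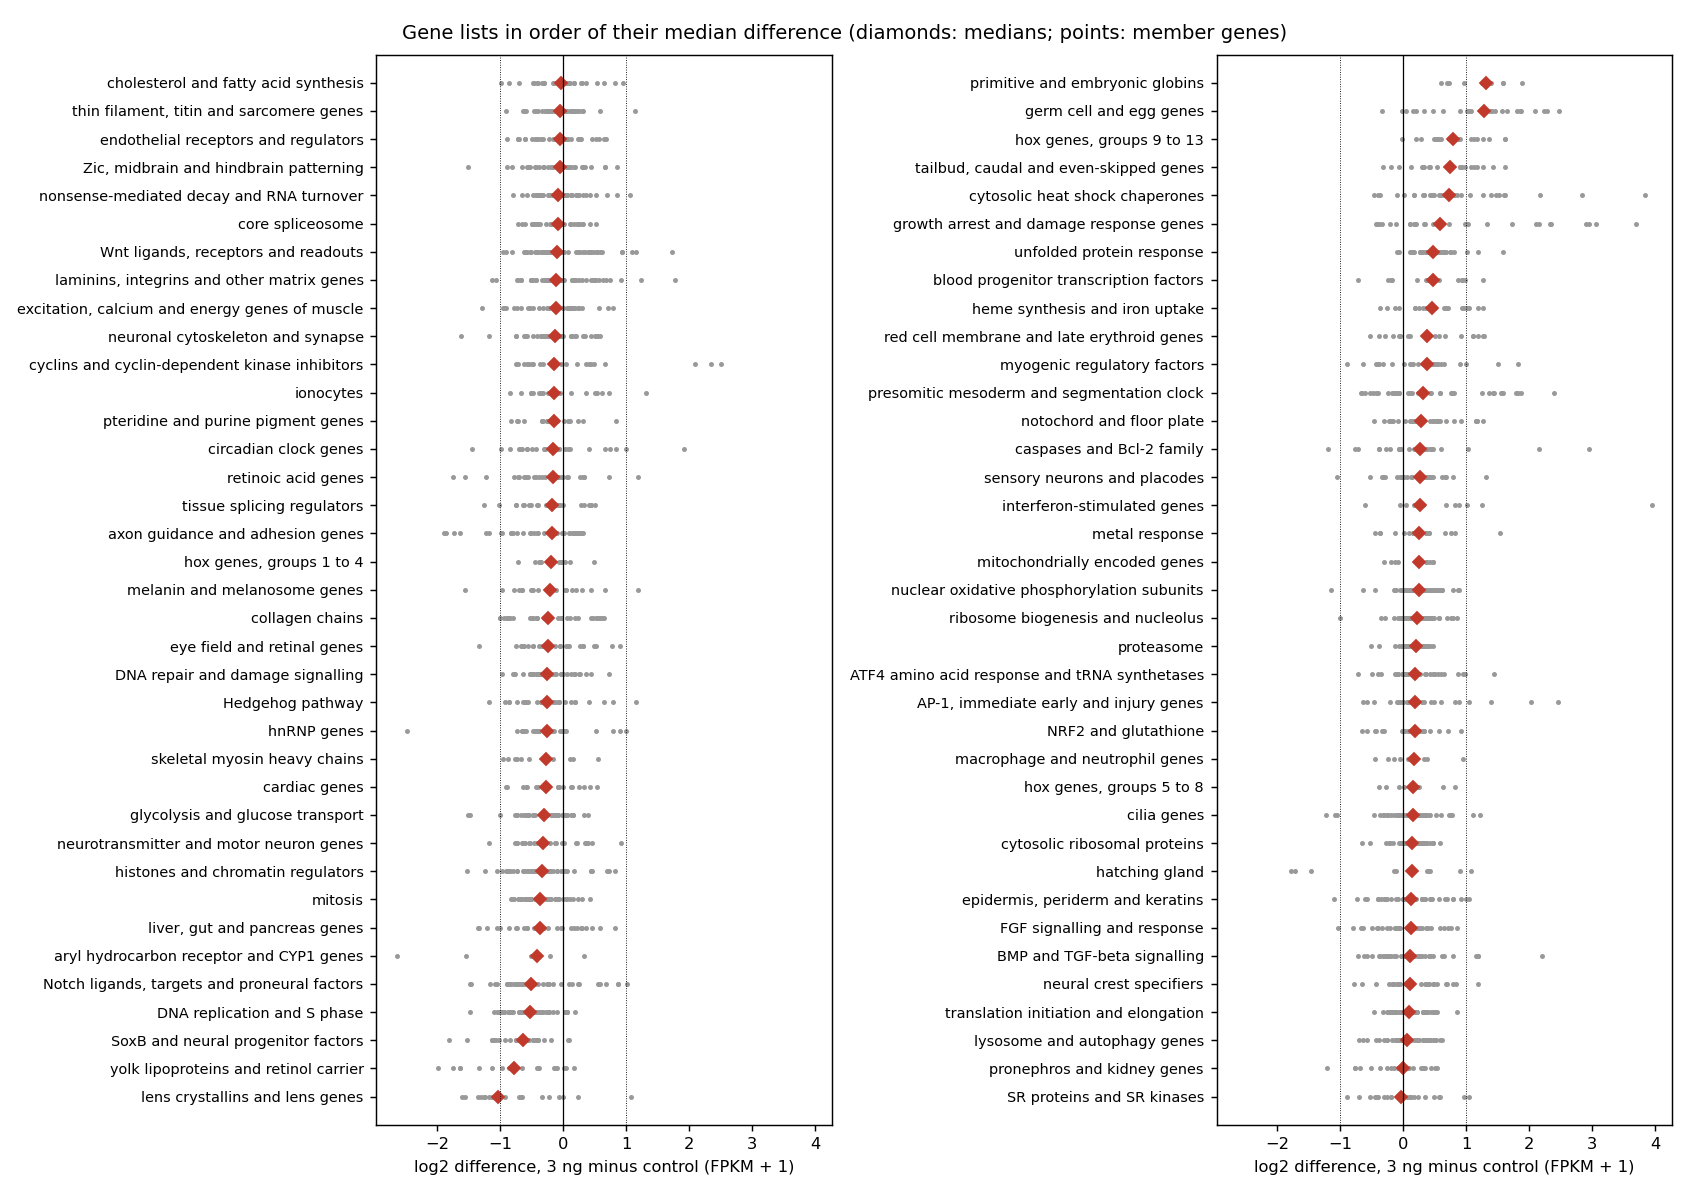
The 74 gene lists in order of their median log2 difference, 3 ng minus control (x axis); grey points are the members that passed the filter, diamonds are medians, and dotted lines mark 2-fold. Embryonic globins (1.32), germ cell and egg genes (1.28) and posterior hox genes (0.79) have the highest medians, and lens (-1.03), yolk (-0.79) and SoxB genes (-0.64) the lowest.

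Yolk and liver secretory genes lay mostly below the control. The yolk syncytial layer loads lipids from yolk onto apolipoproteins, and the liver secretes plasma proteins. Of the 22 list members that passed the filter (35 in the table), 0 were at least 2-fold higher and 6 lower and 19 of 22 lay below the control. apoc2, a cofactor of lipoprotein lipase, stood at 7.82 FPKM in control embryos and 1.24 FPKM in 3 ng morphants, rbp4, the plasma retinol carrier, at 41.5 against 11.6 FPKM, and apoa4b.2 and apoa4b.1 at 47.2 against 14.5 FPKM and at 43.1 against 13.2 FPKM. apoa4b.1, apoa4b.3 and apoa4b.2 lie next to each other on chromosome 16 (23913943 to 23948538). The abundant lipid carriers apoeb, apoc1 and fabp3 did not reach the limit: apoeb was at 312 FPKM in control embryos and 351 FPKM in 3 ng morphants, apoc1 at 348 against 351 FPKM and fabp3 at 622 against 560.3 FPKM. In the liver, gut and pancreas list 5 of 33 were lower and 0 higher, among them the fibrinogen chains fgg (6.43 and 2.21 FPKM) and fgb (9.44 and 4.04 FPKM) and ptf1a, a pancreatic and hindbrain factor (3.01 and 0.988 FPKM). ela2, an exocrine protease, lay on the other side at 2.16 FPKM in control embryos and 4.56 FPKM in 3 ng morphants.

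cyp1a was the farthest below the control of all protein-coding genes with a standard symbol. This cytochrome P450, an enzyme of xenobiotic oxidation under the aryl hydrocarbon receptor, stood at 102 FPKM in control embryos and 15.5 FPKM in 3 ng morphants, a fold of 0.152 (0.141 to 0.165) (ENSDARG00000098315, chromosome 18, 5588068 to 5598958, minus strand). foxq1a, another gene of that list, was at 11.2 FPKM in control embryos and 3.16 FPKM in 3 ng morphants. The receptor ahr2 (6.17 and 4.47 FPKM) and the repressor tiparp (13.5 and 17.2 FPKM) were near the control.

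Few genes of splicing factors reached the limit, and hnRNP genes lay mostly below the control by less than 2-fold. Counts of the splicing lists stand beside 3.68% higher and 2.2% lower over all genes. Among 30 measured members of the hnRNP list, of 30 in the table, 1 was higher and 1 lower (3.33% each). The lower one was hnrnpul1l (ENSDARG00000079780, chromosome 5, 61799629 to 61820009, plus strand), a relative of hnRNP U-like 1, at 141 FPKM in control embryos and 24.5 FPKM in 3 ng morphants, a fold of 0.174 (0.163 to 0.186). The higher one was hnrnpd, an AU-rich element binding protein, at 34.4 FPKM in control embryos and 69.98 FPKM in 3 ng morphants. Of the 30 genes 24 lay below the control, with a median of -0.26, or -0.34 after rescaling to equal sums of FPKM. Among them ptbp1a was at 50.7 FPKM in control embryos and 29.96 FPKM in 3 ng morphants and syncrip at 148 against 95.9 FPKM. Among SR proteins and their kinases 1 of 25 was called, the kinase clk4a, at 37.3 FPKM in control embryos and 78.2 FPKM in 3 ng morphants; srsf1b lay just under the limit at 14.3 against 28.8 FPKM, and srsf5b, on the other side, was at 89.3 against 47.4 FPKM. No core spliceosome gene of 34 was called, and prpf8 stood at 62.97 FPKM in control embryos and 40.98 FPKM in 3 ng morphants. Neural splicing regulators included the 2 lower members (8%) of their list of 25, nova1 (11.2 and 4.11 FPKM) and nova2 (40.8 and 19.7 FPKM).

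Counts of the signalling lists stand beside 3.68% higher and 2.2% lower over all genes. In the BMP and TGF-beta list 4 of 45 (8.89%) were higher and 0 lower: the antagonists fsta, fstb and nog2, and the ligand bmp2b. fsta (follistatin) stood at 11.9 FPKM in control embryos and 58.4 FPKM in 3 ng morphants, a fold of 4.92 (4.52 to 5.37), nog2 at 6.99 against 17.1 FPKM and bmp2b at 6.19 against 15.03 FPKM. In the Wnt list 3 of 55 were higher and 0 lower, namely the antagonists dkk1b (4.95 and 18.8 FPKM) and dkk1a (1.28 and 4.07 FPKM) and the ligand wnt5a (1.699 and 4.74 FPKM). tcf7l2, a nuclear effector, was farthest below, at 9.22 FPKM in control embryos and 4.25 FPKM in 3 ng morphants. FGF genes had 1 of 33 lower, the receptor fgfr3 (13.5 and 6.08 FPKM), with the feedback gene spry4 above the control at 14.5 FPKM in control embryos and 26.9 FPKM in 3 ng morphants. In the retinoic acid list 1 of 31 members was higher and 3 (9.68%) were lower. The higher one was crabp2b, a cytoplasmic carrier, at 11.1 FPKM in control embryos and 26.5 FPKM in 3 ng morphants. Among the lower ones was nr2f1b, a nuclear receptor, at 17.1 against 5.14 FPKM. In the clock list 2 of 27 members were higher and 1 lower. cry3a, a cryptochrome, was higher at 13.01 FPKM in control embryos and 51.9 FPKM in 3 ng morphants. tefb, an output factor, was lower at 8.17 against 2.38 FPKM. Cilia genes had 2 of 54 higher and 3 lower, with the regulator foxj1b at 1.45 FPKM in control embryos and 4.28 FPKM in 3 ng morphants and rfx4 at 19.5 against 7.80 FPKM.

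Collagen chains lay on both sides of the control. The list had 36 members in the table and 31 past the filter, of which 0 were higher and 2 lower (6.45%, beside 2.2% over all genes). These were col1a1b, a type I chain of skin and bone, at 179.9 FPKM in control embryos and 89 FPKM in 3 ng morphants, and col6a1 at 11.98 against 5.48 FPKM. The partner chain col1a2 was just under the limit at 207 FPKM in control embryos and 112 FPKM in 3 ng morphants. After the median of genes of like length was taken off, neither call held and the median of the list went from -0.24 to -0.04. Above the control without reaching the limit, col2a1a, a type II chain, stood at 409.9 FPKM in control embryos and 612 FPKM in 3 ng morphants, col9a1b at 251 against 368 FPKM and col9a2 at 127 against 177 FPKM. Matrix genes above the limit were emilin3a, expressed in notochord, at 11.5 FPKM in control embryos and 41.9 FPKM in 3 ng morphants, and p4ha2, a prolyl hydroxylase that modifies collagen, at 12.1 against 30 FPKM. lum, a small proteoglycan, was lower, at 7.69 FPKM in control embryos and 2.98 FPKM in 3 ng morphants. Skin genes had 1 of 44 higher, the plakophilin pkp3a (26.3 and 55.2 FPKM), and 1 lower, krtt1c19e, a basal keratin (122 and 56.2 FPKM). These shares, 2.27% each, stand beside 3.68% higher and 2.2% lower over all genes. krt8 stood at 349.9 FPKM in control embryos and 566 FPKM in 3 ng morphants. foxi1, the regulator of ionocytes, was the called member of the ionocyte list, at 4.58 FPKM in control embryos and 12.8 FPKM in 3 ng morphants.

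Hatching gland proteases lay on both sides of the control. he1.1 and he1.2, metalloproteases that digest the egg envelope, stood at 197 FPKM in control embryos and 70.8 FPKM in 3 ng morphants and at 105 against 29.7 FPKM, and the cathepsin ctslb at 52.1 against 15.14 FPKM. The third copy he1.3 was higher, at 16.9 FPKM in control embryos and 36.9 FPKM in 3 ng morphants, and the gland regulator klf17 was at 7.76 against 15.3 FPKM. A run of 12 neighbouring genes tested on chromosome 12 (16555603 to 16951851), ctslb copies and clone-named genes, were all lower, with a summed level of 472.9 FPKM in the control library and 121.4 FPKM at 3 ng. This run was found after the values were seen, and its genes are close copies that may share reads.

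Most genes of the ribosome, oxidative phosphorylation and proteasome lists lay above the control by less than 2-fold. Cytosolic ribosomal protein genes had 0 of 82 members called and 69 above the control, with a median of 0.14. Ribosome biogenesis genes had 56 of 66 above it (0.21), nuclear oxidative phosphorylation genes 67 of 76 (0.24) and proteasome genes 39 of 45 (0.21), beside 8529 above and 7895 below of all genes tested. rpl12 stood at 802 FPKM in control embryos and 1196 FPKM in 3 ng morphants, npm1a, a nucleolar chaperone, at 284 against 422 FPKM, cycsb, cytochrome c, at 308 against 534 FPKM and psmb7 at 141 against 196 FPKM. The called members were both lower: ubtf, the transcription factor of ribosomal RNA genes, at 60.6 FPKM in control embryos and 29.7 FPKM in 3 ng morphants, and cox6b1, a cytochrome c oxidase subunit, at 25.01 against 10.8 FPKM. The ribosomal protein median was 0.06 after rescaling to equal sums of FPKM and 0.01 after the median of genes of like length was taken off. The same 2 settings gave 0.16 and 0.12 for the oxidative phosphorylation genes. Glycolysis genes lay the other way, with 3 of 43 lower (6.98%, beside 2.2% over all genes), 33 below the control and a median of -0.31. The glucose transporter slc2a1a stood at 24.6 FPKM in control embryos and 8.14 FPKM in 3 ng morphants. The gluconeogenic enzyme fbp1b was at 13.7 against 4.17 FPKM and the abundant aldolase aldoab at 484 against 525 FPKM.

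Egg and germ cell genes were low in level but mostly higher. In its list 16 of 25 measured members (35 in the table) were higher (64%, beside 3.68% over all genes) and 0 lower. The median was 1.28. Members below 1 FPKM in the control, such as zp3b, zar1 and h1m, passed the filter through the morphant libraries. The count and the median were therefore partly set by the filter. Over all 35 in the table the median was 0.89. It was 2.31 with a pseudocount of 0.1 FPKM, 0.48 with 5 FPKM and 0.46 over members with a mean of 5 FPKM or more. The egg envelope genes zp3 and zp3b stood at 1.698 FPKM in control embryos and 11.8 FPKM in 3 ng morphants and at 0.702 against 6.23 FPKM, the oocyte factor zar1 at 0.882 against 5.80 FPKM, the maternal linker histone h1m at 0.837 against 5.42 FPKM and cldnd at 1.24 against 11.5 FPKM. The germ cell genes ddx4 and nanos3 were near the control, with ddx4 (Vasa) at 1.38 FPKM in control embryos and 1.44 FPKM in 3 ng morphants and nanos3 at 1.28 against 1.25 FPKM. ybx1, an abundant maternal RNA-binding protein, was at 984 FPKM in control embryos and 1125 FPKM in 3 ng morphants. Apart from this list, a run of 7 genes on chromosome 24 (9976212 to 10032784), all without a standard name, was higher. Its summed level was 4.48 FPKM in the control library and 37.0 FPKM at 3 ng. The run was found after the values were seen, and its gene descriptions name no egg or germ cell role. All of its genes but zgc:173856 were below 1 FPKM in the control and passed the filter through the morphant libraries. The run was therefore partly set by the filter.

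Calls also followed gene length and position. Of gene models under 1000 bases 10.25% were higher and 5.27% lower, and of those of 4000 bases or more 0.987% and 1.26%, with medians of 0.17 and -0.11. Adjacent tested genes called the same way formed 24 runs of 3 or more, 22 of them higher, with 104 genes in all. Several runs were core histone genes on chromosomes 7 and 25: of the 28 genes described as core histones 24 passed, 14 were higher and 0 lower, and their summed level was 26.5 FPKM in the control library and 76.8 FPKM at 3 ng. Spliceosomal small nuclear RNA genes were alike, with 10 of the 11 that passed higher of 38 in the table, but on 18 fragments in the control and 120 at 3 ng. Of the 38, 27 were at 0 in the control and 16 at 3 ng. These 10 genes and the 14 higher histone genes all had less than 1 FPKM in the control. They passed the filter through the morphant libraries, so both counts were partly set by the filter. 5S ribosomal RNA genes, equally short, had 12 higher and 13 lower of 66. These 3 groups were chosen after the values were seen. Histone and small nuclear RNAs are mostly not polyadenylated, how RNA was selected for these libraries is not given here, and its part in these values was not tested.

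**Figure D5:**
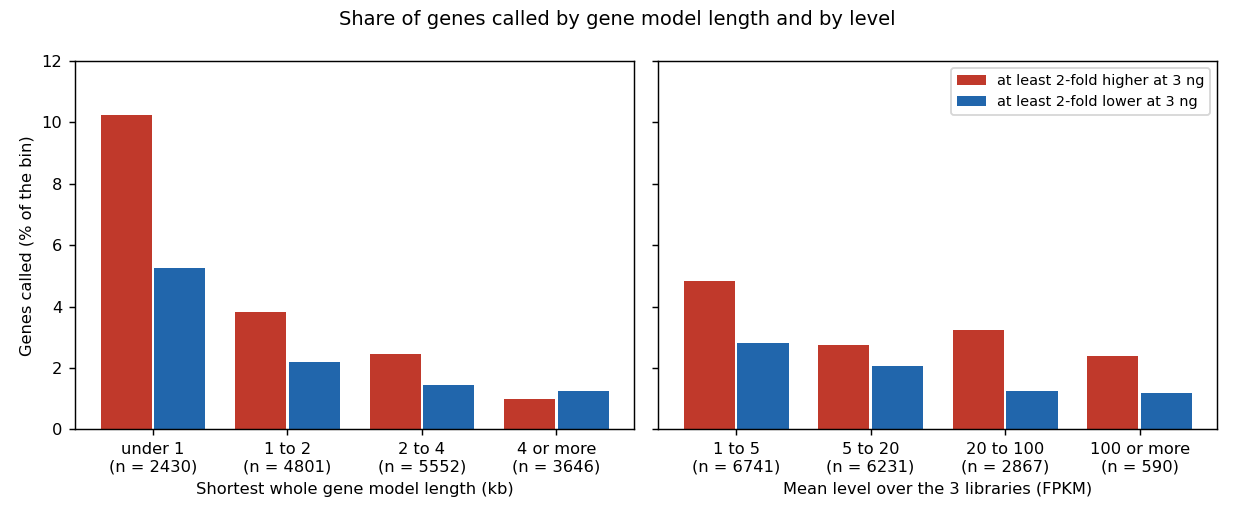
Percent of genes tested that were at least 2-fold higher (red) or lower (blue) at 3 ng, by shortest whole gene model length in kb (left) and by mean level over the 3 libraries in FPKM (right), with the number of genes in each bin. The share higher is 10.25% under 1 kb and 0.987% at 4 kb or more.

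The 6 ng library gives the only other reading of the same control, and since both comparisons share it, their values are set side by side without a measure of likeness. The control was injected with 3 ng of morpholino, so the 6 ng comparison was not matched for dose. What the larger dose of morpholino adds apart from its target was not tested. At 6 ng 1032 genes (6.28%) were at least 2-fold higher and 745 (4.53%) lower than the control. Between the doses, 183 genes (1.11%) were at least 2-fold higher and 163 (0.992%) lower at 6 ng than at 3 ng. serpinh1b stood at 312 FPKM and hbbe3 at 834 FPKM at 6 ng, each close to its 3 ng level. The neural genes olig2 and fabp7a and the pigment gene tyrp1b lay farther from the 3 ng library: olig2 was at 6.96 FPKM, fabp7a at 5.50 FPKM and tyrp1b at 2.997 FPKM at 6 ng. isg15, at 58.96 FPKM, and krt8, at 1057 FPKM, lay farther above the control at 6 ng than at 3 ng.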

How the data were processed

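RNA of 3 pools of zebrafish embryos was sequenced (BGISEQ-500) and mapped to a zebrafish genome and its genes, per the labels' protocols. The authors deposited 1 table of FPKM values for 25961 genes. Not given in the sources used here are the aligner, how reads were counted, the genome build and annotation, strandedness and how RNA was selected, so reads of overlapping or antisense genes cannot be told apart. Column names identify the morpholino libraries. The control column names neither a morpholino nor a dose and was matched because the series has 1 control, and every difference rests on that match.

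Whole fragments were recovered from the steps between FPKM values, using for each gene the shortest model length that gave whole numbers in all 3 libraries (25961 genes, sums of 95.8% to 96% of the totals). Where a shorter length than the true one also fits, counts are too low and intervals too wide. Depth was 14589056 fragments in the control, 17748075 at 3 ng and 13557636 at 6 ng. The recovery and the 2-fold rule were tested on simulated data. Recovered lengths stood as the true ones there for all but the shortest genes. The simulation therefore does not measure how often lengths in these data are too short. No count test was run, since 1 library a side leaves no spread to estimate. Differences used a pseudocount of 1 FPKM, which understates those of low genes, and a gene low in one library can pass the filter through another. This held for called members such as fosab, isg15, mespab, bbc3, cdkn2a/b, nfe2, heyl and rab38b, each below 1 FPKM in the control. Counts of their lists were partly set by the filter. A gene without fragments in the control has a fold given only as a lower bound against a floor of 3 fragments per library.

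There were 74 gene lists with 2662 symbols, of which 2539 were matched: 2257 by the symbol in the table, 253 by a table of gene names and 29 by RefSeq symbols (assembly GRCz12tu). The members, lists and limits were chosen with earlier results of these data known, and some lists share genes. Genes named are the target and its paralog, up to 8 members of a list farthest from the control in each direction, up to 4 of a list's most abundant members, and the 20 genes with a standard symbol (no clone names or bare identifiers) farthest from the control in each direction. Some genes are not reported here and are in no list. No promoter sequences were used here. Alternatives were a pseudocount of 0.1 or 5 FPKM, other filters on low values, and 2 rescalings. Added after the data were seen were a limit on gene model length and a correction for length. Computation used Python 3.11.15 with numpy 2.4.6, pandas 2.3.3 and scipy 1.17.1, and figures matplotlib 3.10.9.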

Additional observations from a re-analysis of the deposited data

Results flagged for a closer look

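In 5 list members the 3 ng library was at least 2-fold from the control while the 6 ng library lay on the other side of it. With 1 library a group the difference between doses was not tested, and both share the control, which matches the 3 ng dose only. he1.2 had a log2 difference of -1.79 at 3 ng and 0.13 at 6 ng, with levels of 105, 29.7 and 115 FPKM in the control, 3 ng and 6 ng libraries. ctslb had -1.72 and 0.48, with 52.1, 15.14 and 73.1 FPKM in the same order. he1.1 had -1.47 and 0.77, with 197, 70.8 and 338 FPKM. These 3 are hatching gland proteases. Another gene named ctslb lay below the control at both doses, with differences of -2.33 and -0.45 and levels of 17.8, 2.75 and 12.8 FPKM. The glucose transporter slc2a1a had -1.49 and 0.25, with 24.6, 8.14 and 29.5 FPKM. hspb11 had 1.07 and -0.06, with 7.56, 16.9 and 7.22 FPKM. Over all genes tested, 8 of the 604 higher and 19 of the 361 lower at 3 ng lay on the other side of the control at 6 ng. The 13 genes that the chromosome 12 cathepsin run spans had a summed level of 473, 121 and 504 FPKM in that order.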

How the results depend on the processing

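The counts of 604 higher and 361 lower genes moved by more than 1.5 times under 4 of the 9 alternatives. They were 1004 and 750 with a pseudocount of 0.1 FPKM, 137 and 79 with 5 FPKM, 278 and 171 with a mean of 5 FPKM or more, and 355 and 233 for gene models of 1000 bases or more (an added alternative). In the last 2, fewer genes were counted, 9688 and 13999. Other settings gave 663 and 424 without a filter, 574 and 372 with the filter on the control and 3 ng libraries alone, 582 and 395 with the median ratio and 491 and 442 after the correction for length (also added). Rescaling to equal sums gave 520 and 457 and took the share higher from 62.6% to 53.2%. Of the 23 lists with a median of 0.3 or more from 0, 1 changed sign under an alternative: the median of the neurotransmitter and motor neuron genes was -0.31, and 0.0060 with a mean of 5 FPKM or more, where fewer genes were counted. Of the 199 list members called, 0 changed sign. A pseudocount of 5 FPKM left 122 genes under the limit and took the medians of posterior hox genes from 0.79 to 0.50, of tailbud genes from 0.74 to 0.37, of the growth arrest list from 0.58 to 0.35 and of glycolysis genes from -0.31 to -0.18. Without the filter the yolk list went from -0.79 to -0.38. Rescaling to equal sums took 15 genes near the limit out of the call, among them hnrnpd, clk4a, baxa, manf, cpox, fech, heyl, irf1a and pkp3a. The correction for length took 24, among them col1a1b, col6a1, ubtf, fgfr3, wnt5a, nova2, he1.3, hoxc12a, hoxc13a and hoxa13b. No paired analysis was possible because each group has 1 library, and for the same reason no library could be left out. Low fragment numbers limit the short RNA genes.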
